A study of Mus musculus with 8 samples.

Results

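Sox5, Sox6, Trps1 and Nkx3-2 are 4 transcription factor genes of the chondrocyte, the cell of cartilage, and their peaks were examined in 4 lists of ChIP-seq peaks labelled as trimethylated lysine 27 of histone H3 (H3K27me3). The members were taken by name: 4 of 21883 protein-coding genes of GRCm38.p6, with every peak that lay over a gene or within 5 kb of it. That gave 47 of 33739 peaks in Ezh2-Cko, 49 of 49405 in Utx-cKO, 46 of 27013 in Jmjd3-Cko and 48 of 28057 in wild type. The study compared cultured mouse chondrocytes from cartilage of 4 genotypes: Ezh2-Cko, Utx-cKO and Jmjd3-Cko, labelled as conditional knockouts, and wild type. Each genotype had 1 ChIP and 1 input library, 8 libraries in all, with an anti-H3K27me3 antibody. No source used here gives the Cre driver, the age of the mice or the number of animals behind a library. The cells were grown in DMEM with serum.

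H3K27me3 is laid down by Polycomb repressive complex 2, whose catalytic subunit is Ezh2, and Utx and Jmjd3 are the enzymes that take it off. It is best known from broad domains over silent developmental genes. Sox5 and Sox6 are close paralogs of the SoxD group, which lack an activation domain of their own and work with Sox9 on enhancers of cartilage matrix genes. Trps1 is an atypical GATA-type zinc finger protein that represses transcription in the growth plate, and its loss in humans causes a skeletal dysplasia. Nkx3-2, also called Bapx1, is a homeodomain repressor that acts early in the axial skeleton and holds back Runx2.

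ChIP libraries held 34.8 M fragments after duplicate removal in Ezh2-Cko, 34.4 M in Utx-cKO, 25.7 M in Jmjd3-Cko and 29.2 M in wild type, and their inputs 24.0, 24.0, 16.6 and 16.6 M in the same order. With 1 library per genotype no difference below has a replicate check, and exact binomial 95% intervals cover counting error only. Utx-cKO and Jmjd3-Cko share a title prefix, while Ezh2-Cko and wild type each have their own, so the prefix and the genotype cannot be told apart in comparisons with wild type. In a fixed list of 20 housekeeping genes, Actb, Gapdh, Tbp and Hprt among them, 19 had a peak at the gene start in each of the 4 lists. H3K27me3 is ordinarily low at such genes, so a peak is described here as a peak and is not read as silencing. Fold enrichment is the authors' value of a peak over its own input and ranks peaks within 1 list.

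The reference holds 300-base windows, 250 bases before and 50 after an annotated start, for 1 start of Sox5, 6 of Sox6 and 1 of Nkx3-2 (RefSeq, GRCm38.p6). Of the 3 genes' 8 windows, 4 lay under a peak in all 4 lists and 4 in none. Over 21262 such windows of protein-coding genes, a peak touched 59.4% for Ezh2-Cko, 62.3% for Utx-cKO, 58.6% for Jmjd3-Cko and 57.5% for wild type. The windows below are shown because they separate starts with a peak from a start without, and because they differ in CpG dinucleotides, which are in capitals. Each is read 5′ to 3′ on the minus strand.
Nkx3-2, chr5:41764171-41764470, under a peak in 4 lists: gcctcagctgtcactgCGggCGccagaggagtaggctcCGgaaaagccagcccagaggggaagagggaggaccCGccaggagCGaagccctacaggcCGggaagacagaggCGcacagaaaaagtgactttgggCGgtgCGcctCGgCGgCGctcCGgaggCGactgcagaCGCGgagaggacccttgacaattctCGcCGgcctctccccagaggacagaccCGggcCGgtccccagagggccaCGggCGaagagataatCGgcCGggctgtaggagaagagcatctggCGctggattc
Sox6, upstream start, chr7:116030998-116031297, under a peak in 4 lists: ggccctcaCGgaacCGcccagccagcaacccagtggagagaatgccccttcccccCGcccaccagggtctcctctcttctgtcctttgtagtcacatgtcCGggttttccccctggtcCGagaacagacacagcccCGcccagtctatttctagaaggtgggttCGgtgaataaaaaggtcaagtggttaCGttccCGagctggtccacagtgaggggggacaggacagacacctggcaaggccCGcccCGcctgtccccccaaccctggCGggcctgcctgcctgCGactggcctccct
Sox6, internal start, chr7:115824661-115824960, under a peak in 4 lists: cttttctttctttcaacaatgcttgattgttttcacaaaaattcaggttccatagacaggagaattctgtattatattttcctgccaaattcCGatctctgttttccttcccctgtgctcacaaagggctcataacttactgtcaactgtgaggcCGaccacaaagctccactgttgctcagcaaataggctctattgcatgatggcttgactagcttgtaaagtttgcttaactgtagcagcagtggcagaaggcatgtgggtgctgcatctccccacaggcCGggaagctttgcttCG
Sox5, internal start, chr6:143947057-143947356, under no peak: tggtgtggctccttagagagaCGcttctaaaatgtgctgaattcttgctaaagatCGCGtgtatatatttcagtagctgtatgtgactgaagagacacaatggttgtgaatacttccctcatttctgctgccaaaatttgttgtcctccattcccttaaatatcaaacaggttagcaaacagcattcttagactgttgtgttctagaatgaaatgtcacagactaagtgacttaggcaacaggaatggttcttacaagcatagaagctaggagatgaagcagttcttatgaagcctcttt

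The Nkx3-2 window held 25 CpGs and 66.7% G and C. The upstream Sox6 window at 116030998 held 13 CpGs, and the window of another upstream Sox6 start, at 116038695, held 11. These values sit beside a median of 22 CpGs over the 11867 windows with a peak in all 4 lists, and 3 over the 7807 windows with none. The internal Sox5 start had 3 CpGs, and the 3 Sox6 starts without a peak had 2 each. The internal Sox6 start printed above departed from this order: it held 4 CpGs and lay under a peak in every list. Among the 6035 windows with fewer than 5 CpGs, 4.97% had a peak in all 4 lists, against 94.9% of the 7640 windows with 20 or more.

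Letters of binding motifs were searched on both strands of the windows. The SOX core ACAAT occurred in the windows of Nkx3-2 (1 match), of Sox5 (1) and of the internal Sox6 start printed above (2), and in 27.7% of all windows. It also occurred in the windows of 2 Sox6 starts without a peak, at 115995037 (2 matches) and 115801560 (3), so windows with and without a peak held it. A match is a description of the sequence only. A GATA motif, spelled AGATAA, was found once in the Nkx3-2 window, once in the Sox6 window at 115846091, which lay under no peak, and in 9.65% of all windows. The letters of an NK homeobox motif, TAAGTG, were found once each in the Sox5 window and in the Sox6 windows at 116038695, under a peak in 4 lists, and 115846091, under none, and in 8.37% of all windows. The GATA and NK motifs can share letters where one follows the other.

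All 4 genes had a peak within 2 kb of the gene start in all 4 lists. Over all protein-coding genes such a promoter peak was found for 62.6% in Ezh2-Cko, 65.6% in Utx-cKO, 61.3% in Jmjd3-Cko and 60.7% in wild type, and for 58.8% in every list. Over the 989 genes of 200 kb or more, a class that holds Sox5, Sox6 and Trps1, the shares were 75.3%, 79.5%, 75.3% and 74.2% in the same order. The reference gives no strand for Trps1, so peaks at both of its ends were counted and are given apart. The 4 genes fell into 2 kinds by width: Sox6 and Trps1 had domains of 11656 to 14908 bp, and Sox5 and Nkx3-2 had peaks of 2109 to 3597 bp.

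Sox5, on the minus strand of chromosome 6 from 143828425 to 144782287, carried a gene-start peak of 2585 bp in Ezh2-Cko, 2109 bp in Utx-cKO, 2807 bp in Jmjd3-Cko and 2914 bp in wild type. Each knockout peak was narrower than the wild-type one. The median width over all genes with a promoter peak was 2085.5, 2446 and 1980 bp in the knockout lists in that order and 1998 bp in wild type. Among genes with a promoter peak the Sox5 width was at percentile 64.1 in Ezh2-Cko, 41.3 in Utx-cKO, 71.2 in Jmjd3-Cko and 73.7 in wild type, so that it fell below the median in Utx-cKO alone. Fold enrichment of the peak was 7.66 in Ezh2-Cko, 9.05 in Utx-cKO, 7.01 in Jmjd3-Cko and 6.63 in wild type.

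The widest Sox5 peak was not at the gene start. It lay inside the gene, centred 576 kb from the start, between 144200586 and 144211118. Its width was 9898 bp in Ezh2-Cko, 10378 bp in Utx-cKO, 9988 bp in Jmjd3-Cko and 9905 bp in wild type, with fold enrichment of 6.28, 6.58, 7.55 and 6.08. The widths were close to each other, and the peak was the 79th, 223rd and 76th longest of the knockout lists and the 63rd longest in wild type. The lists differ in length, and by percentile of width the peak stood at 99.77, 99.55, 99.72 and 99.78. Its end nearer the gene start met the non-coding gene Gm38531, at 144211110, in Utx-cKO alone, where the peak ended at 144211118. In the other lists it stopped within 5 kb of that gene. From this block towards the gene start, 542 kb of the gene held no wild-type peak. A 303 bp peak of Ezh2-Cko was the single peak of any list in that interval.

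Most other Sox5 peaks lay on the far side of the block, towards the 3′ end of the gene. Counts of intragenic peaks were 11 in Ezh2-Cko, 14 in Utx-cKO, 11 in Jmjd3-Cko and 12 in wild type. Merged over the lists, Sox5 had 23 regions, 7 of them in all 4 lists and 9 in 1 list. Utx-cKO alone held 4 of the 9, 3 of them the most distant of its peaks from the start, at 814 to 919 kb. Over all genes 69.9% of 17205 non-promoter regions in a single list were of Utx-cKO, and over the 4 genes 9 of 29. A region of 2206 bp centred 736 kb from the start was called in Ezh2-Cko (fold enrichment 2.84) and Utx-cKO (2.86) and not in Jmjd3-Cko or wild type. The converse held for regions centred 711 and 614 kb from the start, which were called in Jmjd3-Cko with fold enrichment 3.83 and 3.86 and in wild type with 3.30 and 2.75. Peaks covered 22952 bp of Sox5 in Ezh2-Cko, 24032 bp in Utx-cKO, 21066 bp in Jmjd3-Cko and 23152 bp in wild type.

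Sox6, on the minus strand of chromosome 7 from 115470872 to 116040776, began under a long domain. The domain was 14453 bp wide in Ezh2-Cko, 11656 bp in Utx-cKO, 12270 bp in Jmjd3-Cko and 12211 bp in wild type. It was widest in Ezh2-Cko, at 1.18 times wild type, and narrowest in Utx-cKO, at 0.955 times. The Ezh2-Cko peak ran from 116026326 to 116040778. Wild type had 2 peaks over the same stretch, of 2099 bp with fold enrichment 2.72 and of 12211 bp with 7.61, so the wider Ezh2-Cko call took in a second wild-type peak that lay next to the domain. Both upstream annotated starts and the antisense gene Sox6os, at 116031979 to 116032550, lay under the domain in every list. It ranked 21st, 150th and 39th by width in the knockout lists and 23rd in wild type, with fold enrichment of 9.28, 11.7, 10.1 and 7.61. By percentile of width the domain stood at 99.94, 99.70, 99.86 and 99.92 of these lists, which differ in length. The fold enrichments were at percentiles 73.9, 78.9, 70.8 and 67.8 of the genes with a promoter peak.

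Sox6 held the most intragenic peaks of the 4 genes, 22 in Ezh2-Cko, 19 in Utx-cKO, 18 in Jmjd3-Cko and 19 in wild type. Apart from the 2099 bp wild-type peak next to the domain, which joined the promoter region, they formed 34 regions outside the promoter. Of these regions 9 were in all 4 lists. The region over the internal start printed above was 2568 bp wide in Ezh2-Cko, 2649 bp in Utx-cKO, 4368 bp in Jmjd3-Cko and 1856 bp in wild type. Its fold enrichment was 4.26, 5.26, 5.62 and 5.65, among the higher intragenic values of the gene in each list. Regions centred 424 and 373 kb from the start were also shared by all lists, the first with fold enrichment 4.27 in Ezh2-Cko, 4.71 in Utx-cKO, 5.72 in Jmjd3-Cko and 3.97 in wild type. Towards the 3′ end 4 regions, 472 to 567 kb from the start, were called in Ezh2-Cko and Utx-cKO and in neither other list. All of these were weak, with fold enrichment from 2.35 to 3.19.

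Trps1, on chromosome 15 from 50654757 to 50890631, had the widest promoter domain of the 4 genes. At its higher-coordinate end the domain measured 14790 bp in Ezh2-Cko, 14908 bp in Utx-cKO, 14633 bp in Jmjd3-Cko and 14625 bp in wild type. The widest was in Utx-cKO and the narrowest in wild type. It was the 17th, 63rd and 13th longest of the knockout lists and the 10th longest in wild type, with fold enrichment of 12.2, 11.4, 10.8 and 9.22. By percentile of width the domain stood at 99.95, 99.87, 99.95 and 99.96 of these lists, which differ in length. The fold enrichments were at percentiles 92.3, 76.6, 75.8 and 83.8 of the genes with a promoter peak. The miRNA gene Mir1907 lay under the domain. At the other end a peak of 930 bp in Ezh2-Cko, 890 bp in Utx-cKO, 1011 bp in Jmjd3-Cko and 427 bp in wild type stood just outside the gene, with fold enrichment between 2.64 and 3.13.

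Inside Trps1 a peak followed about 20 kb from the domain's end of the gene, with 3783 bp in Ezh2-Cko, 3692 bp in Utx-cKO, 4055 bp in Jmjd3-Cko and 3591 bp in wild type. It had the highest intragenic fold enrichment of the gene in each list, 4.33, 5.52, 5.84 and 4.46. Intragenic peaks numbered 8 in Ezh2-Cko, 10 in Utx-cKO, 11 in Jmjd3-Cko and 11 in wild type. Jmjd3-Cko differed in extent and not in number: peaks covered 30771 bp of the gene there, 1.22 times the 25283 bp of wild type. A peak of 3198 bp in Jmjd3-Cko, 72.8 kb from the same end, spanned what were 2 wild-type peaks of 695 and 387 bp. A peak of 1344 bp centred 54.7 kb from that end was called in Jmjd3-Cko alone.

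Nkx3-2, on the minus strand of chromosome 5 from 41761483 to 41764220, is a short gene, and its promoter peak took in nearly all of it. The peak was 3597 bp wide in Ezh2-Cko, 3485 bp in Utx-cKO, 3162 bp in Jmjd3-Cko and 3111 bp in wild type. Each knockout peak was wider than the wild-type peak, by 1.16, 1.12 and 1.02 times. The fold enrichment was 6.43 in Ezh2-Cko, 9.64 in Utx-cKO, 6.23 in Jmjd3-Cko and 6.31 in wild type. These were at percentiles 41.0, 60.3, 32.2 and 49.4 of the genes with a promoter peak. Among all peaks of each list they were at percentiles 76.8, 89.2, 66.8 and 76.8. A smaller upstream peak, about 4 kb before the start, was called in all 4 lists, with 267 bp in Ezh2-Cko, 923 bp in Utx-cKO, 350 bp in Jmjd3-Cko and 571 bp in wild type. The non-coding gene Gm46910 overlaps Nkx3-2 on the opposite strand and lay under the same promoter peak, so the peak cannot be assigned to either gene.

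**Figure D1:**
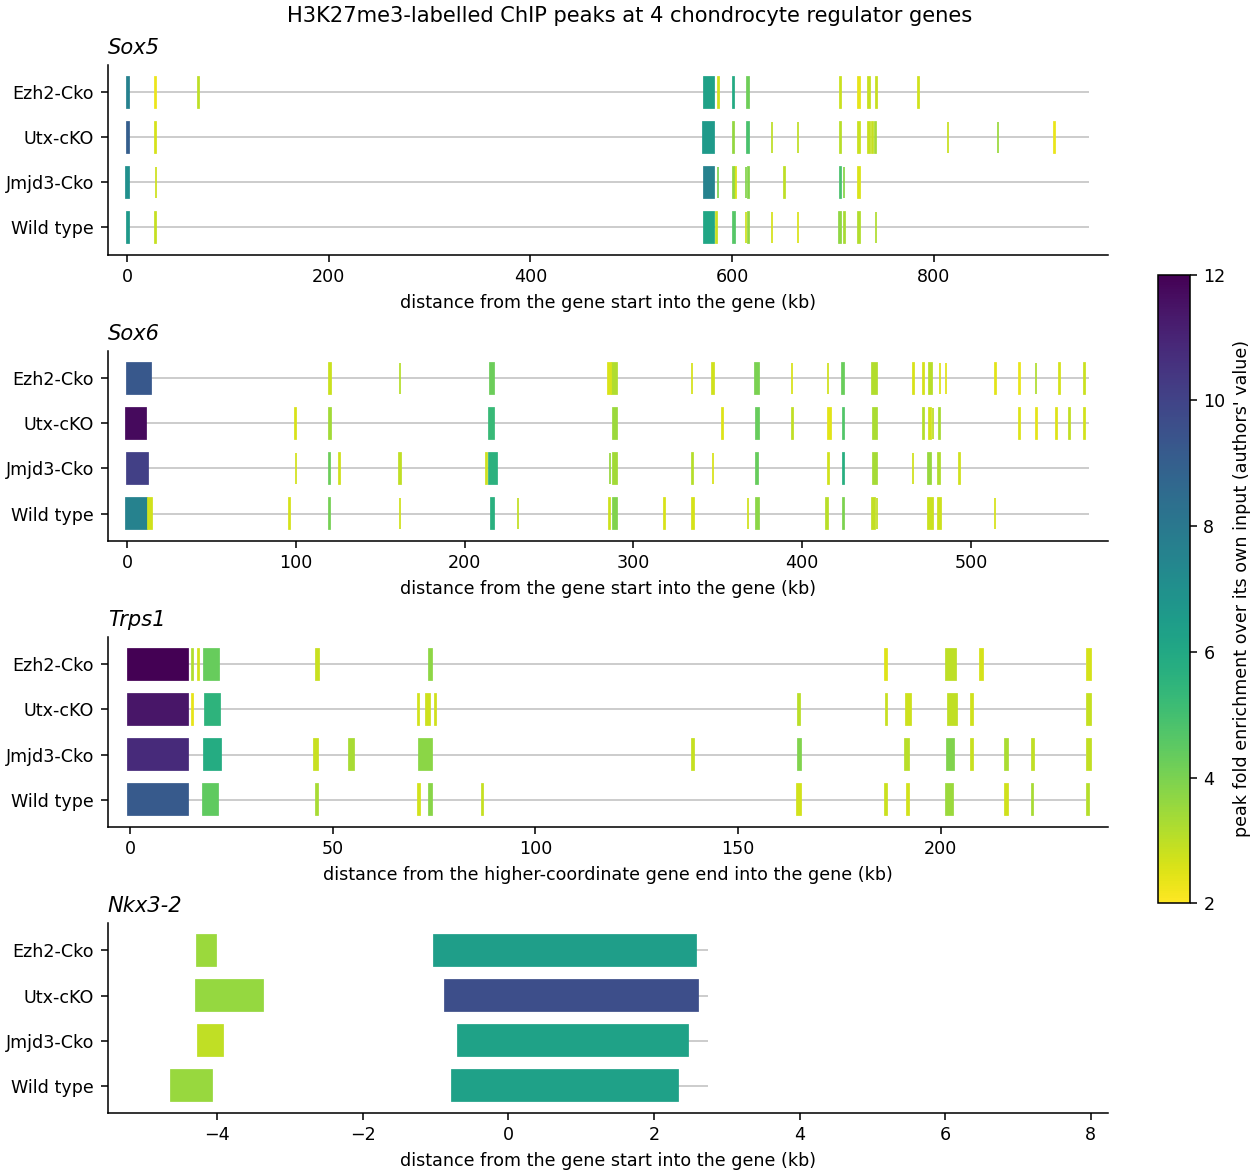
Peaks of each list along Sox5, Sox6, Trps1 and Nkx3-2, drawn by distance in kb from the gene start (for Trps1 from its higher-coordinate end), with colour for fold enrichment over the own input and narrow peaks drawn at a least line width. The block 576 kb into Sox5 and the start domains of Sox6 and Trps1 recur in all 4 lists, while weaker peaks differ between lists.

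**Figure D2:**
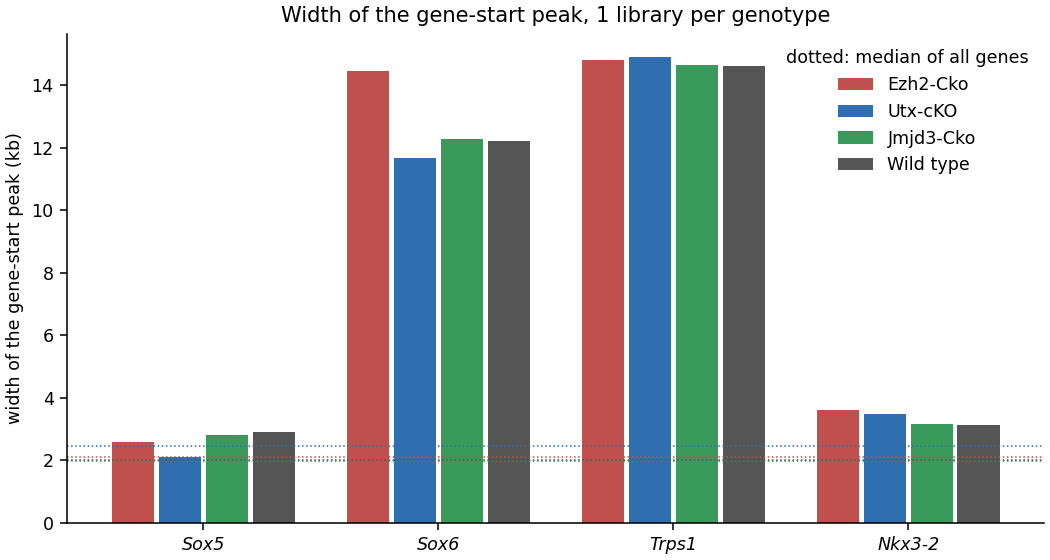
Width in kb of the widest gene-start peak of each gene, 1 bar per genotype with 1 library each, and dotted lines for the median promoter peak width over all genes of a list. Trps1 stays between 14625 and 14908 bp, while Sox6 reaches 14453 bp in Ezh2-Cko. In wild type that Sox6 stretch was called as 2 peaks, 14310 bp together, and the bar shows the wider one.

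In Ezh2-Cko the promoter peaks of the 4 genes summed to 36355 bp, against 33288 bp in wild type, a ratio of 1.09, with both ends of Trps1 counted. The wild-type sum leaves out the 2099 bp peak next to the Sox6 domain, a stretch that the wider Ezh2-Cko call took in. With both ends of Trps1 summed, none of the 4 genes passed a ratio of 1.5 in either direction in any of the knockouts. The weak peak at the lower-coordinate end of Trps1, taken alone, passed it in each, with 930 bp in Ezh2-Cko, 890 bp in Utx-cKO and 1011 bp in Jmjd3-Cko against 427 bp. Over the 13071 genes with a promoter peak in both lists, 12.1% were at least 1.5 times wider in Ezh2-Cko and 3.79% at least 1.5 times narrower, with a median ratio of 1.05. Peaks outside the promoters numbered 42 in Ezh2-Cko and 43 in wild type, a ratio of 0.977. With a fold enrichment of 4 or more, where few of these peaks were left, the ratio turned to 1.20. Without that cutoff the ratio over genes of 200 kb or more was 1.17. Of those genes 37.4% had more such peaks than in wild type and 19.0% had fewer. Sox6 had more, with 22 against 19, while Sox5 (11 against 12) and Trps1 (8 against 11) had fewer. The summed cover of the 4 genes was 87900 bp in Ezh2-Cko, 1.03 times the 85077 bp of wild type. Beside it, the median ratio of covered bases was 1.13 over genes of 200 kb or more and 1.11 over all genes. Bases under called peaks do not measure the amount of the mark.

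In Utx-cKO the 4 genes had 49 peaks, against 48 in wild type, in a list that was 1.76 times as long as the wild-type list. Their promoter peaks summed to 33048 bp, 0.993 times wild type. Elsewhere 30.3% of 13184 genes had promoter peaks at least 1.5 times wider, 1.52% at least 1.5 times narrower, and the median ratio was 1.22. Non-promoter peaks of the 4 genes numbered 44 in Utx-cKO and 43 in wild type, whereas over genes of 200 kb or more the ratio was 1.93. Of those 989 long genes, 57.6% had more non-promoter peaks in Utx-cKO than in wild type and 9.61% had fewer. Sox5 had more, with 14 against 12, Sox6 had 19 in both, and Trps1 had fewer, with 10 against 11.

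Long genes that were already dense in wild type were set beside them. Among the 67 genes of 200 kb or more with at least 10 wild-type peaks outside the promoter, Sox5, Sox6 and Trps1 included, the median ratio of covered bases between Utx-cKO and wild type was 1.55, with quartiles of 1.13 and 2.17. Sox5 stood at 1.04, Sox6 at 0.943 and Trps1 at 1.04, at percentiles 19.4, 8.96 and 20.9 of the 67. In Ezh2-Cko, where the median was 1.08, they stood at 0.991, 1.10 and 0.986. In Jmjd3-Cko, where the median was 1.01, they stood at 0.910, 1.01 and 1.22. With the 27013 strongest peaks of each list, the non-promoter peaks of the 4 genes numbered 22 in Utx-cKO and 43 in wild type, a ratio of 0.512. With these lists the ratio was 0.987 over all protein-coding genes, 0.847 over all long genes and 0.768 over the 67. The 67 were chosen by their wild-type peaks, which also enter the ratios, and the part of this choice was not tested. No test of the 3 genes against the others was made, and the part of list length and depth was not tested.

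**Figure D3:**
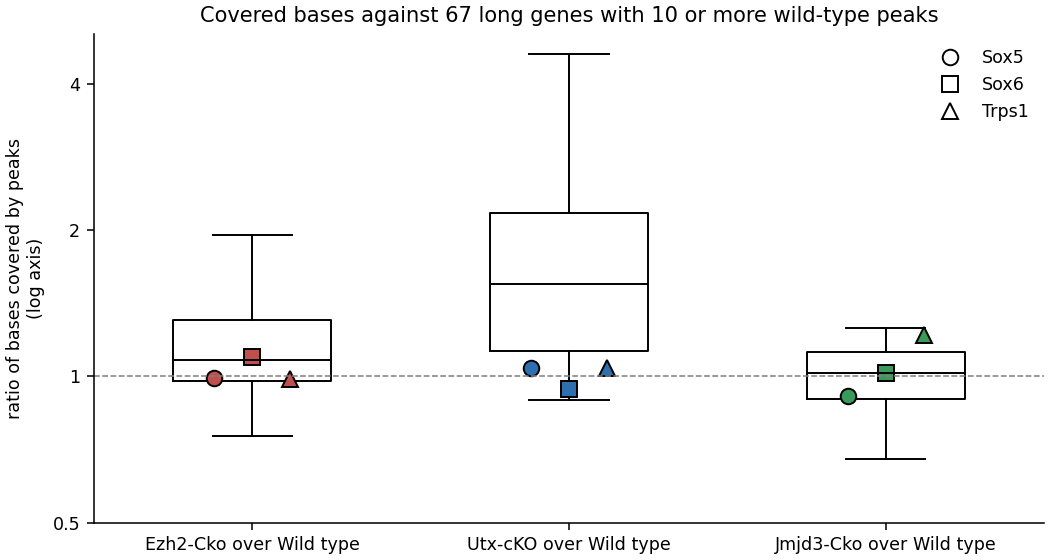
Ratio of bases covered by peaks, each knockout over wild type on a log axis, for Sox5, Sox6 and Trps1 (symbols) and for the 67 genes of 200 kb or more with at least 10 wild-type peaks outside the promoter (boxes from quartile to quartile with the median, whiskers from percentile 5 to 95). In Utx-cKO the 3 symbols lie from 0.943 to 1.04 and the median of the box is 1.55.

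In Jmjd3-Cko the promoter peaks summed to 33883 bp, 1.02 times wild type, beside a median ratio of 1.02 over 12974 genes. Of those genes 8.34% had peaks at least 1.5 times wider and 5.23% at least 1.5 times narrower. Non-promoter peaks of the 4 genes numbered 41 in Jmjd3-Cko and 43 in wild type, a ratio of 0.953, and the ratio over long genes was 0.930. Of the long genes 22.5% had more such peaks than in wild type and 31.0% had fewer. The summed cover was 88755 bp, the highest of the 4 lists, with Trps1 the gene furthest above wild type. With a fold enrichment of 4 or more, where few of these peaks were left, the ratio of non-promoter peaks turned to 1.40. With a q of 0.001 or less it turned to 1.17. The median fold enrichment of all peaks was 3.83 in Jmjd3-Cko and 3.37 in wild type, so 1 cutoff does not cut both lists alike.

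Sox6 and Trps1 were dense in peaks for their length. Per 100 kb, Sox6 had 3.86 intragenic peaks in Ezh2-Cko, 3.33 in Utx-cKO, 3.16 in Jmjd3-Cko and 3.33 in wild type. Trps1 had 3.39, 4.24 and 4.66 in the knockouts in that order and 4.66 in wild type. Sox5 had fewer, at 1.15, 1.47, 1.15 and 1.26. Over the 989 long genes the medians were 0.418, 0.691, 0.321 and 0.373. In wild type Trps1 stood at percentile 98.1 of the long genes, Sox6 at 94.5 and Sox5 at 77.0, and in Utx-cKO at 88.4, 83.7 and 65.1. The shares of long genes with any intragenic peak were 71.8% in Ezh2-Cko, 76.2% in Utx-cKO, 64.0% in Jmjd3-Cko and 66.2% in wild type.

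**Figure D4:**
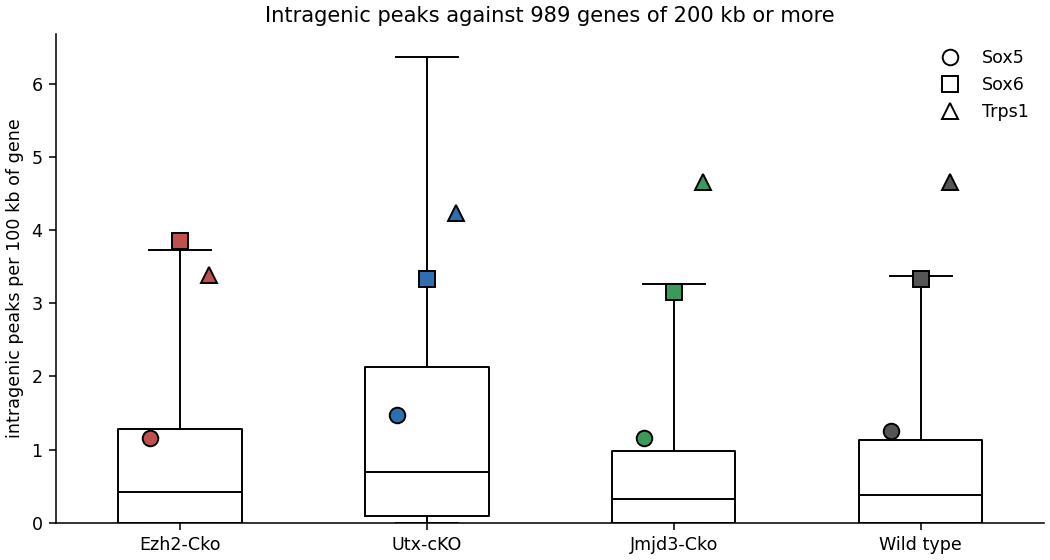
Intragenic peaks per 100 kb of gene in each list for Sox5, Sox6 and Trps1 (symbols) over the 989 protein-coding genes of 200 kb or more (boxes from quartile to quartile with the median, whiskers from percentile 5 to 95). Sox6 and Trps1 lie above the box in every list, and Sox5 lies inside or just above it.

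Promoter and intragenic peaks differed in how often they recurred. All 5 wild-type peaks at gene ends of the 4 genes had an overlapping peak in each knockout, beside 97.7% of all wild-type promoter peaks for Ezh2-Cko, 99.0% for Utx-cKO and 96.6% for Jmjd3-Cko. Of the 43 wild-type peaks elsewhere, 28 were overlapped in Ezh2-Cko (65.1%, 49.1 to 79.0%), 26 in Utx-cKO (60.5%, 44.4 to 75.0%) and 31 in Jmjd3-Cko (72.1%, 56.3 to 84.7%). The shares over all protein-coding genes were 68.2%, 78.7% and 60.7%. The Utx-cKO list, which overlapped the most wild-type peaks of genes in general, thus overlapped the fewest at these genes, and the Jmjd3-Cko list the most. This order was not kept at stricter thresholds. Over all wild-type peaks of the 4 genes, promoters included, Ezh2-Cko and Utx-cKO tied at 72.7% with a q of 0.001 or less, and Ezh2-Cko and Jmjd3-Cko tied at 88.9% with a fold enrichment of 4 or more. Peaks of 1 gene share a library and are not replicates, so the intervals are too narrow for a comparison between genes.

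Weaker peaks recurred less than stronger ones in every knockout. Of the 24 wild-type non-promoter peaks with a fold enrichment below 3, 11 recurred in Ezh2-Cko, 11 in Utx-cKO as well, and 13 in Jmjd3-Cko, and of the 19 peaks at 3 and above, 17, 15 and 18. Utx-cKO thus overlapped the fewest of the stronger peaks, and as few of the weaker ones as Ezh2-Cko. In Utx-cKO the shares were 45.8% of the weaker and 78.9% of the stronger peaks, and over long genes they were 67.8% and 85.5%. In Ezh2-Cko the shares were 45.8% and 89.5%, beside 53.6% and 81.1% over long genes. In Jmjd3-Cko they were 54.2% and 94.7%, beside 45.2% and 79.7%. The stronger peaks of the 4 genes thus lay below the long-gene share in Utx-cKO and above it in the other knockouts, and these differences were not tested. The counts by gene take in wild-type non-promoter peaks of any fold enrichment. Utx-cKO overlapped 9 of 19 of these for Sox6, 7 of 11 for Trps1 and 9 of 12 for Sox5. In Ezh2-Cko these counts were 15, 5 and 7, and in Jmjd3-Cko 13, 9 and 8. Sox6 was therefore the gene with the lowest share in Utx-cKO, and Trps1 the gene with the lowest share in Ezh2-Cko. The 19 peaks of Sox6 include the 2099 bp peak next to its promoter domain, which only Ezh2-Cko overlapped.

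Joined over the 4 lists, peaks of the 4 genes formed 5 regions at gene ends and 74 elsewhere. The 5 were in all lists, as were 81.3% of 14261 promoter regions of all genes. Of the 74, 19 were in all 4 lists (25.7%, beside 17.0% of 31078 regions of all genes), 8 in 3, 18 in 2 and 29 in 1. The shares in 1, 2 and 3 lists were 39.2%, 24.3% and 10.8% at the 4 genes, beside 55.4%, 17.4% and 10.2% over all genes. Regions in all 4 lists had a median width of 2189 bp and those in 1 list of 473 bp. Of regions in exactly 2 lists, 6 of 18 were shared by Ezh2-Cko and Utx-cKO and 4 by Jmjd3-Cko and wild type. Over all genes these pairings made up 52.1% and 4.42% of such regions. The first pair had the larger input libraries, of 24.0 M fragments each against 16.6 M, and the part of depth in these pairings was not tested.

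**Figure D5:**
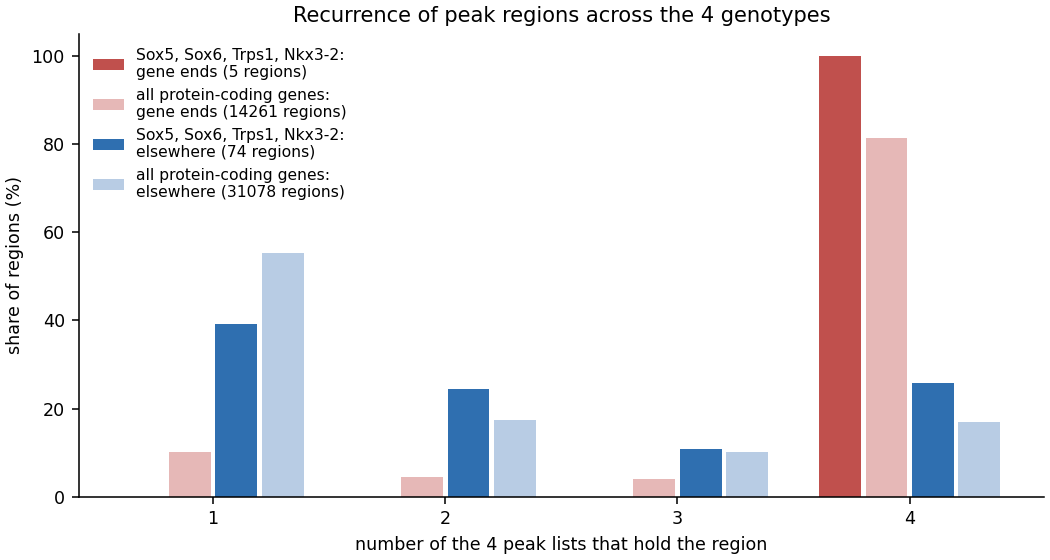
Share in percent of joined peak regions that were held by 1, 2, 3 or 4 of the lists, for gene ends and elsewhere, at the 4 genes and at all protein-coding genes. All 5 regions at gene ends of the 4 genes are in 4 lists, and of the 74 elsewhere 29 are in 1 list.

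Fixed lists of related genes set the 4 in their pathway. Of 22 other transcription factors and partners of chondrocyte differentiation, 20 had a promoter peak in Ezh2-Cko, 20 in Utx-cKO, 19 in Jmjd3-Cko and 19 in wild type. Over all protein-coding genes the shares were 62.6%, 65.6%, 61.3% and 60.7% in the same order, and of the 20 housekeeping genes 19 had one in each list. Sox9, the partner of Sox5 and Sox6, had 8929, 9749 and 8029 bp of promoter peaks, counted at both gene ends, in the knockouts in that order and 7847 bp in wild type. Sox8 had a peak in all lists too. Pax9, a paired-box gene of the early sclerotome that acts upstream of Nkx3-2, had a peak in the 3 knockouts (574, 1472 and 588 bp) and none in wild type, and Runx3 had a peak in all lists but Jmjd3-Cko. Among 18 cartilage genes that the Sox proteins act on, 18 had a promoter peak in each knockout and 17 in wild type, a near-full count like that of the housekeeping genes. Chad, a matrix protein gene, was the exception in wild type, while Col2a1, Acan and Col9a1 had peaks in all lists.

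Family relatives outside cartilage were compared next. Of 14 SOX genes outside cartilage, 10 had a promoter peak in Ezh2-Cko, 12 in Utx-cKO, 10 in Jmjd3-Cko and 6 in wild type, beside 62.6%, 65.6%, 61.3% and 60.7% of all genes. Among those without a peak in wild type were Sox2, Sox3, Sox10 and Sox15, which had one in some knockouts, and 2 of the 14 had a peak in no list. Sox2 lacked one in Ezh2-Cko too. The 6 GATA genes, kin of Trps1 by their zinc finger, had promoter peaks in 3, 4 and 3 cases in the knockouts and 2 in wild type. Gata3 was called in Utx-cKO alone, Gata5 in the 3 knockouts, Gata2 in every list and Gata1 in none. The 9 NK homeobox relatives of Nkx3-2 were called in 5, 7 and 6 cases in the knockouts and 6 in wild type. Nkx2-1 was called in the 3 knockouts, Nkx6-2 in Utx-cKO and wild type, Nkx1-1 in all but Ezh2-Cko, and Nkx2-2 in every list. Among peaks called in some of the lists, fold enrichment was 2.75 for Gata3 in Utx-cKO and 3.08 for Sox10 in Ezh2-Cko.

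Genes with a like pattern were sought by the root mean square difference, over the 4 lists, of the log2 percent of a gene with its flanks that peaks covered. For Sox5 they were Foxp2 (0.18) and Psd3 (0.21) of 200 genes with 0.5 to 2 times its length, and for Sox6 Lrba (0.12) and Csgalnact1 (0.17) of 472. For Trps1 they were Tcf4 (0.14) and Runx1t1 (0.19) of 1495, and for Nkx3-2 Btg2 (0.05) and Yod1 (0.06) of 1789. Trps1 was covered to 10.1% in Ezh2-Cko, 10.7% in Utx-cKO, 12.5% in Jmjd3-Cko and 10.3% in wild type, and Tcf4 to 11.1%, 11.9%, 11.5% and 11.3%. Likeness over 4 libraries ranks genes by these values and nothing else.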

How the data were processed

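H3K27me3 ChIP and input libraries of 4 genotypes were sequenced, 1 of each per genotype. Peak lists were made by the authors in the broad mode of MACS 2.1.2, 1 list per ChIP library with its input as control and nothing pooled, per the file headers. Fragments were read as pairs, q was 0.05 for narrow and for broad regions, 1 duplicate was kept and the larger library was scaled to the smaller. Bowtie2 stands among the tools in the submitters' processing notes. Its settings and the build are not stated. Each deposited list gives a pileup (coverage signal, not used here). It also gives −log10 p and −log10 q, the authors' fold enrichment as a ratio over local input, and the deposited length in bp. A list's threshold moves with depth.

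Genes, strands and start windows came from RefSeq tables of GRCm38.p6. The build was checked on the peaks: 13274 genes had a wild-type promoter peak, against 2967 and 2984 when genes were moved by 20 kb to either side. A strand was given for 17491 of 21883 protein-coding genes, and the other 4392 were counted at either end. Peaks overlapped from 1 bp. Promoter peaks lay within 2 kb of a gene start; intragenic and flanking peaks lay elsewhere over the gene or within 5 kb. All 89 entries of the 6 gene lists matched. From each list up to 4 genes were named, those with a promoter peak in some lists first, and per gene the 2 most alike genes were named. The members and lists were chosen with earlier results of these data known. With 1 library per genotype no test was made. The steps were tested on simulated data. Tables were handled with pandas 2.3.3 in Python 3.11.15, intervals came from scipy 1.17.1, and matplotlib 3.10.9 drew the plots. Alternatives were a q of 0.001, fold enrichment of 4, lists of equal length, merging within 3 kb, a flank of 1 kb, promoter windows of 1 and 5 kb and an overlap of 50%.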

Additional observations from a re-analysis of the deposited data

How the results depend on the processing

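The 4 genes kept a promoter peak in each list under all alternatives run for that count. With the main settings the ratios of the knockouts to wild type lay close to 1. Over the alternatives the ratio of non-promoter peaks ranged from 0.512 to 1.40. The 86 recomputed values that kept their side or moved little include 24 promoter-peak counts and also overlap shares, which are not ratios to wild type. Ratios crossed 1 in 14 recomputed values. For summed promoter width this was Utx-cKO, at 1.01 with q of 0.001 or less, 1.22 with peaks within 3 kb merged and 1.00 with a promoter window of 5 kb, and Jmjd3-Cko, at 0.932 with merging. For non-promoter peaks it was Ezh2-Cko, at 1.20 with fold enrichment of 4 or more and 1.03 with merging, Utx-cKO, at 0.944 with q of 0.001 or less and 0.512 with equally long lists, and Jmjd3-Cko, at 1.17 with q of 0.001 or less and 1.40 with fold enrichment of 4 or more. For covered bases it was Ezh2-Cko, at 0.984 with equally long lists and 0.975 with merging, Utx-cKO, at 0.797 with equally long lists, and Jmjd3-Cko, at 0.996 with merging. The share of wild-type peaks overlapped moved to 88.9% in Ezh2-Cko and in Jmjd3-Cko with fold enrichment of 4 or more, where fewer peaks are compared. The cause of the other shifts was not tested. Counting Trps1 at its higher-coordinate end alone, an alternative chosen after seeing the data, crossed 1 in no ratio. No paired analysis was possible because each genotype had 1 library. Leaving out a replicate was not possible for the same reason. Weak peaks depend on depth, and a peak missing from a list was not detectable at that threshold rather than absent.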
